A study of Mus musculus with 22 samples.

Results

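Keratins and claudins are the filament and junction proteins by which epithelial tissues are recognised, and 27 of their genes were followed here across 22 mouse tumour libraries. The members are the protein-coding genes whose symbol is Krt or Cldn followed by a number alone and that had 10 or more counts in at least 3 libraries. Of 72 such genes in the table, 27 passed, 15 of 49 keratins and 12 of 23 claudins. They comprised 4 keratins of simple epithelia (Krt7, Krt8, Krt18, Krt19), 6 of stratified epithelia (Krt1, Krt5, Krt10, Krt14, Krt15, Krt79), 1 hair keratin (Krt83), 4 others (Krt23, Krt80, Krt90, Krt222) and the claudins Cldn1, Cldn2, Cldn3, Cldn4, Cldn5, Cldn6, Cldn7, Cldn9, Cldn11, Cldn12, Cldn15 and Cldn19. The rule used counts in any library and no contrast. Just inside it Krt1 and Krt79 reached 10 counts in exactly 3 libraries, and just outside it Cldn13, Krt16 and Krt17 did so in 2. A gene that reached 10 counts in a single genotype entered through that genotype, and 4 members did so (Krt7 and Krt83 in Snf5-null tumours, Krt90 in Snf5-null TATCre tumours and Krt1 in SS18-SSX tumours). Differences of these 4 from the group that admitted them had to arise. They are given as descriptions with no p-value, and they are named where the main comparisons count them. Cldn4 and Krt14 (3 and 4 Snf5-null libraries, 1 combined) and Cldn2 (3 combined libraries, 1 SS18-SSX) also needed 1 genotype to pass the rule. Their differences from that genotype follow in part from the choice, so a p-value given for such a difference is no support.

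The tumours came from 3 genotypes. Combined tumours (8 libraries) were labelled SS18-SSX+/- and Snf5-/-, Snf5-null tumours (8 libraries) SNF5-/- alone and SS18-SSX tumours (6 libraries) SS18-SSX+/- alone. Snf5 is an older name of Smarcb1. SS18-SSX is the fusion that defines synovial sarcoma, a tumour that in people can form epithelial glands beside spindle cells, and Smarcb1 encodes a subunit of the BAF chromatin remodelling complex that SS18 also joins. Recombination was by Myf5Cre, Cre expressed from the Myf5 gene of muscle progenitors, or by TATCre, a Cre protein that enters cells. Combined tumours comprised 4 Myf5Cre (N1, N2, N3, N4) and 4 TATCre libraries (N49, 78774, 78777, 78780), Snf5-null tumours 3 Myf5Cre (N30, N31, N33) and 5 TATCre libraries (N1, N49, N43L, N43R, N51), and SS18-SSX tumours 3 Myf5Cre libraries (N381, N428, N460) and 3 libraries (A, B, N2) whose titles state no Cre. The strain labels begin C57BL/ and count upward by sample, so they give no usable strain, and age is not among the labels. Combined and Snf5-null libraries share 1 number series in their descriptions. The SS18-SSX libraries carry another series for Myf5Cre and a further one where no Cre is stated, so in comparisons with SS18-SSX tumours, and between the 2 SS18-SSX groups, the biology and the series cannot be told apart.

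Keratins form the intermediate filaments of epithelial cells from pairs of a type I and a type II chain. Krt8 with Krt18 is the pair of simple, single-layered epithelia, where Krt7 and Krt19 join them, whereas Krt5 with Krt14 marks the basal layer and Krt1 with Krt10 the upper layers of stratified epithelia. Claudins are membrane proteins that seal tight junctions, the belts that close the gap between neighbouring epithelial or endothelial cells, and different claudins make barriers or ion channels. Muscle progenitors and most sarcomas are mesenchymal and hold little of either family.

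Total counts ran from 8642648 to 25177722 per library. Levels are CPM (counts scaled to a common library total) on library sizes scaled by the trimmed mean of M values (TMM), and each fold change is a log2 value with its standard error (SE) from 1 edgeR quasi-likelihood fit of the 6 groups over 18929 genes, adjusted by the Benjamini-Hochberg method over all of them and called at an adjusted p below 0.05. The labels do not say that each library came from a separate animal, so each p-value reflects sample-to-sample spread that may be technical rather than between animals. Smarcb1 was lower in both genotypes labelled Snf5-/- than in SS18-SSX tumours, at 0.909 to 3.66 CPM in combined, 10.6 to 26.9 CPM in Snf5-null and 47.1 to 111 CPM in SS18-SSX libraries. Combined and Snf5-null libraries did not overlap in it although they share that label, and the cause of this gap was not tested. Combined TATCre library N49 stood apart from the other combined libraries: the mesenchymal filament gene Vim was at 6270 CPM in it, against 166 to 691 CPM in the other 7 and 3350 to 5610 CPM in Snf5-null libraries, while its Smarcb1 level lay in the combined range above. Snf5-null TATCre library N49 stood apart in desmosomal cadherins, with Dsg3 at 330 CPM against 0 to 0.537 CPM in the other Snf5-null libraries. Values without them are given beside results that they move.

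Levels were low for most members. Of 27, 10 averaged 5 CPM or more in at least 1 of the 6 groups and 4 averaged under 1 CPM in all. Per kilobase of exon, the scale on which genes can be compared, Cldn12 was the highest member in combined tumours (mean 21.3 CPM per kb), followed by Cldn3 (11.9) and the endothelial claudin Cldn5 (11.3). In combined Myf5Cre tumours alone Cldn12 (24.1 CPM per kb) led Cldn3 (15.6) and Cldn5 (13.6), while in combined TATCre tumours Cldn12 (18.5 CPM per kb) was followed by Cldn9 (11), Cldn5 (8.95) and Cldn3 (8.22). In Snf5-null tumours Cldn12 (11.7 CPM per kb) led Cldn5 (4.71) and Cldn1 (3.69), and in SS18-SSX tumours the simple keratin Krt18 (14.2 CPM per kb) led Cldn5 (9.26) and Cldn12 (8.97). The summed claudin level was 58.4 to 216 CPM in combined (median 152), 39.5 to 130 CPM in Snf5-null (median 59.8) and 46.4 to 103 CPM in SS18-SSX libraries (median 65.4). On average Cldn12 alone made up most of this sum in each genotype, so the sum says little about the other claudins. In Snf5-null TATCre libraries N43R and N51 Cldn1 was higher than Cldn12. The summed level of the 4 simple keratins was 0.22 to 10.9 CPM in combined (median 1.94), 0.874 to 3.63 CPM in Snf5-null (median 1.81) and 7.31 to 94.9 CPM in SS18-SSX libraries (median 20.4). Each SS18-SSX library except N2 thus lay above every other library in simple keratins, while the 7 combined libraries other than N49 lay between 124 and 216 CPM in claudins, a range that Snf5-null libraries N31 (129 CPM) and N33 (130 CPM) also reached.

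**Figure D1:**
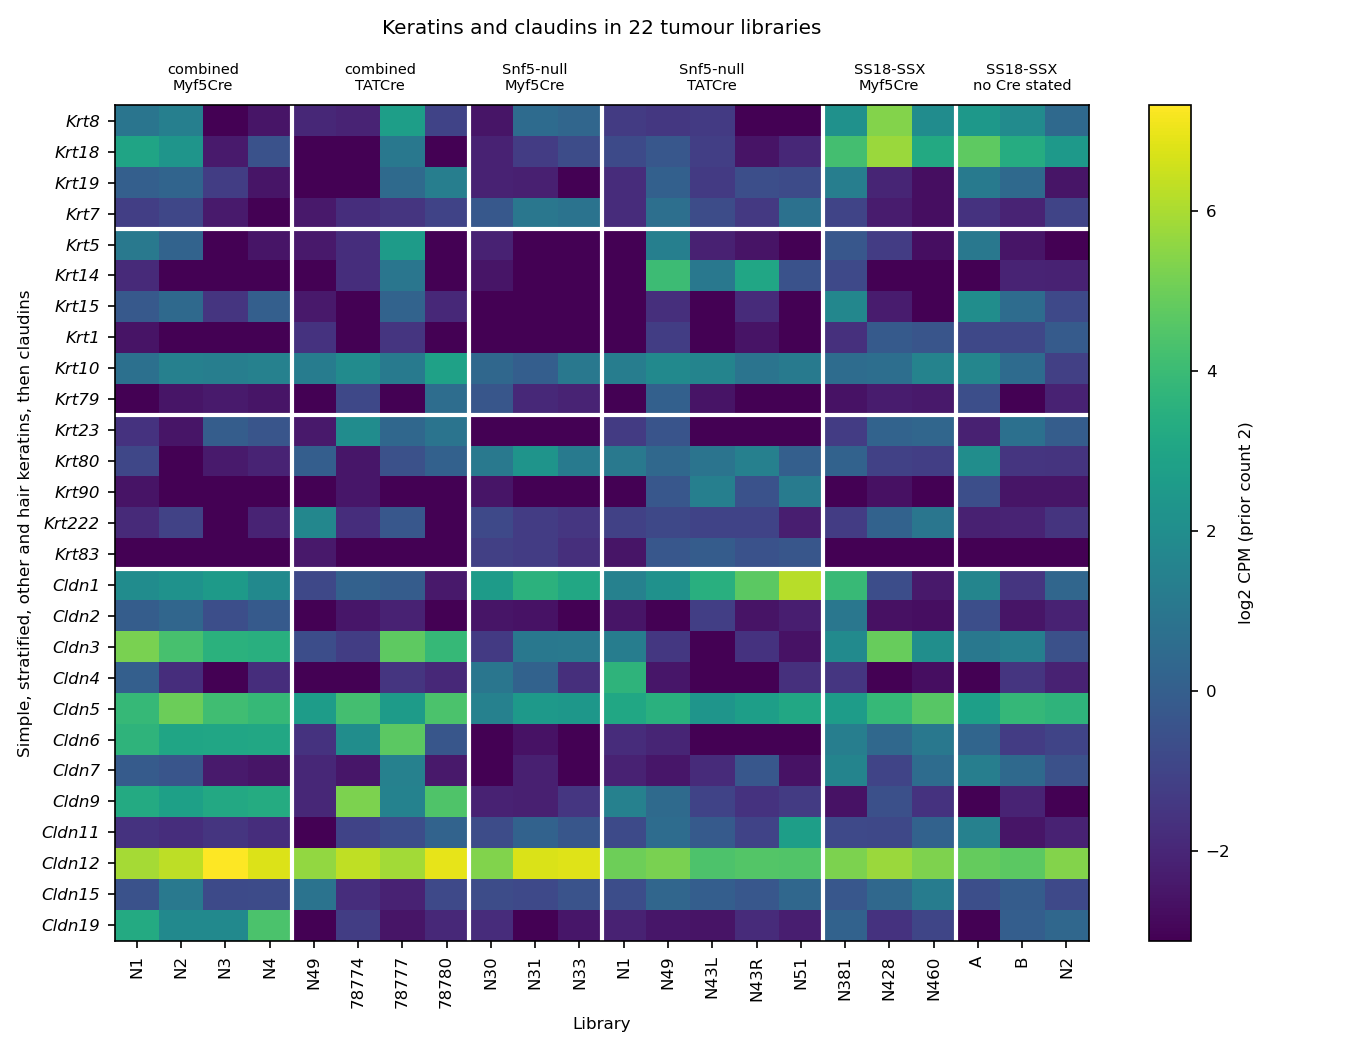
Level of each member (rows; log2 CPM, prior count 2) in each library (columns, by genotype and Cre label). Krt8 and Krt18 reached their highest levels in SS18-SSX library N428, Cldn6 and Cldn9 reached their highest levels in combined libraries, and Cldn12 was the highest row in all columns but Snf5-null TATCre N43R and N51, where Cldn1 was higher.

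Krt8 and Krt18 are neighbours on chromosome 15 (GRCm38, 101996698 to 102004482 on the minus strand and 102028180 to 102032027 on the plus strand, 23697 bases apart), transcribed away from each other, and Cldn6 (chromosome 17, 23679249 to 23682446, plus strand) lies 137 bases from Cldn9 (23682584 to 23684026, minus strand), with which it converges. The promoters of Krt8, Krt18 and Cldn6 are shown as examples of members discussed below. Each is the 250 bases before a transcript start from RefSeq (GRCm38.p6), 5′ to 3′ on the gene's strand. These starts lie inside the gene spans given above, so the end of each window overlaps its gene. The marked letters of Krt8 and Cldn6 fall within those spans, and those of Krt18 fall before its span. Capitals mark CACCTG or its complement CAGGTG, the E-box letters that Snail and Zeb repressors of epithelial genes are known to bind.
Krt8, chr15:102004343-102004592, minus strand: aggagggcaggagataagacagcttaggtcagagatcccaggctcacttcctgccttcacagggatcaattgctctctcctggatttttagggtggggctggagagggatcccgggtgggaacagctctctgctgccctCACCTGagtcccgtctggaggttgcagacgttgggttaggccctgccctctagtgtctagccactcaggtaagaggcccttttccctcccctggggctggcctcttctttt
Krt18, chr15:102027966-102028215, plus strand: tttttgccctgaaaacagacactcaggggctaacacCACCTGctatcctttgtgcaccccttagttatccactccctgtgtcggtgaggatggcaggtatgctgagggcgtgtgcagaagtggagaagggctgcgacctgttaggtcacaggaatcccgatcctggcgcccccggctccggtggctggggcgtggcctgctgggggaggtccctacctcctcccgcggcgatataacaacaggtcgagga
Cldn6, chr17:23679115-23679364, plus strand: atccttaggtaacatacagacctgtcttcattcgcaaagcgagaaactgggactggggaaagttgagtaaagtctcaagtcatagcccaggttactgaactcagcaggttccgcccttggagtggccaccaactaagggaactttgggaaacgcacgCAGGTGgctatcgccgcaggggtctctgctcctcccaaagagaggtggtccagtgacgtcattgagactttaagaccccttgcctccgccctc

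Each of these 3 windows held 1 such E-box. RefSeq windows were at hand for 20 of the 27 members, with 24 windows in all, some of them overlapping. CACCTG or CAGGTG stood in 11 of these 24 windows and in 17.2% of the 32851 windows of all genes. Besides the 3 shown, windows of Cldn4, Cldn7, Krt5, Krt7, Krt10, Krt23, Krt79 and Krt90 held it. None stood in the windows of Cldn1, Cldn2, Cldn3, Cldn5, Cldn11, Cldn12, Cldn15, Cldn19 or Krt14, and Cldn9 had no window. The letters were thus found in members that rose and in members that fell, and were missing from several of both. TATAAA or TTTATA stood in 2 of the 24 and in 12.4% of all, and GGGCGG or CCGCCC in 12 of the 24 and in 32.7% of all. A match is a description of these letters and no evidence of binding.

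Combined tumours held more of several claudins than Snf5-null tumours. Of the 12 claudins 7 rose (Cldn6, Cldn9, Cldn3, Cldn19, Cldn7, Cldn5 and Cldn12) and 2 fell (Cldn1, and Cldn4, which passed the rule through Snf5-null tumours). The median log2 fold change of the 12 was 1.48, while over all tested genes 29.1% rose, 20.5% fell and the median was 0.24. Of the 15 keratins 2 rose (Krt23, Krt15) and 3 fell (Krt80, and Krt83 and Krt7, which entered through Snf5-null tumours). Of the 4 simple keratins none rose and Krt7 alone was called, with a median of 1.91. The median over all genes was 0.12 with another scaling of the libraries (RLE) and 0.07 to 0.31 with 1 library left out, so values that small carry no direction. The share of all genes that rose was 15.9%, 16.5% and 18.2% without Snf5-null Myf5Cre N30, N31 and N33, and 34.6% without Snf5-null TATCre N1. In these bulk tumours fewer cells of a type and less RNA per cell cannot be told apart.

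Cldn6, a claudin of embryonic epithelia, had the largest difference. It stood at 12.6, 7.95, 8.15 and 8.73 CPM in combined Myf5Cre libraries N1 to N4 and at 0.22, 3.82, 25.5 and 0.676 CPM in combined TATCre libraries N49, 78774, 78777 and 78780. It was at 0, 0.0498 and 0 CPM in the Snf5-null Myf5Cre libraries and at 0.174 and 0.127 CPM in Snf5-null TATCre libraries N1 and N49, with no count in N43L, N43R and N51. All 8 combined libraries lay above all 8 Snf5-null libraries, N49 by the least. The fitted log2 fold change was 7.70 ± 1.10 (SE, edgeR adjusted p = 2.3e-05), or 7.95 without combined TATCre library N49. Snf5-null tumours held 6 counts of Cldn6 in all, so the fold itself is poorly fixed.

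Cldn9, its neighbour, followed in most of the same libraries but not in the same order. It stood at 9.41, 6.92, 9 and 9.7 CPM in combined Myf5Cre libraries N1 to N4 and at 0.146, 38.6, 2.75 and 21.9 CPM in combined TATCre libraries N49, 78774, 78777 and 78780. In Snf5-null tumours it was at 0.0995 to 2.62 CPM, with N1 of the TATCre group highest. The groups overlapped through combined library N49 alone, and the log2 fold change was 4.91 ± 0.92 (SE, edgeR adjusted p = 0.00032), or 5.18 without it. Among TATCre libraries 78774 was highest in Cldn9 and 78777 in Cldn6. Over the 8 combined libraries log2 CPM of the pair gave Pearson r = 0.353 and Spearman rho = -0.095 (exact permutation p = 0.427 and 0.84, adjusted p = 0.591 and 0.889 over 18 relations), and r was -0.92 without N49 and 78780.

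Cldn3, a sealing claudin of many simple epithelia, was at 36.9, 19.4, 11.4 and 10.8 CPM in combined Myf5Cre libraries N1 to N4 and at 0.513, 0.308, 26.2 and 14.4 CPM in combined TATCre libraries N49, 78774, 78777 and 78780. In Snf5-null tumours it stood at 0 to 2.33 CPM (median 0.268). TATCre libraries N49 and 78774 lay within the Snf5-null range and the other 6 combined libraries above it. The log2 fold change was 3.98 ± 1.03 (SE, edgeR adjusted p = 0.00423), or 4.21 without N49. Within Myf5Cre groups alone it was 3.77 at an adjusted p of 0.0676.

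Cldn19, a claudin of kidney tubules and Schwann cells, was high in the combined Myf5Cre tumours. It stood at 9.62, 3.49, 3.41 and 20.4 CPM in libraries N1 to N4 of that group, against 0, 0.308, 0.0584 and 0.15 CPM in combined TATCre libraries N49, 78774, 78777 and 78780. Snf5-null libraries were at 0 to 0.169 CPM. All 4 combined Myf5Cre libraries lay above every other library of the series. Averaged over both Cre labels the log2 fold change against Snf5-null tumours was 3.58 ± 0.79 (SE, edgeR adjusted p = 0.00129). It was 6.80 within Myf5Cre groups and 0.37 (adjusted p = 0.798) within TATCre groups, and the interaction of genotype and Cre was 6.43 ± 1.59 (adjusted p = 0.0385). Leaving out 1 of 10 libraries brought the adjusted p of the interaction to between 0.0507 and 0.118. These were N1 and N4 of combined Myf5Cre, N49 of combined TATCre, N31 and N33 of Snf5-null Myf5Cre, N49, N43L, N43R and N51 of Snf5-null TATCre, and SS18-SSX B. Exons of Cldn19 overlap those of Gm12927 on the other strand, and whether the counting used strand is not given. The same limit holds for Cldn3, Krt5, Krt7, Krt8, Krt10, Krt80 and Krt90, whose exons also overlap a gene on the other strand. The summed level of 8 Schwann cell and myelin genes was 50.2 to 131 CPM in the combined Myf5Cre libraries, against 148 to 451 CPM in combined TATCre libraries. In combined against Snf5-null tumours 2 of 7 tested genes of that list rose and 2 fell, from Erbb3 at 2.97 to Mbp at -4.50, beside 29.1% and 20.5% of all genes. Their part in the Cldn19 difference was not tested.

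Cldn12 and Cldn5 were the claudins with 10 counts in every library. Cldn12, a widely expressed claudin, was at 49.1 to 159 CPM in combined tumours (median 79.5), against 21 to 112 CPM in Snf5-null tumours (median 34.6), and the groups overlapped. Its log2 fold change was 0.88 ± 0.26 (SE, edgeR adjusted p = 0.00892), but 0.57 (adjusted p = 0.0795) without Snf5-null Myf5Cre library N30 and 0.23 within Myf5Cre groups. Cldn5, the main claudin of blood vessels, was at 5.96 to 30.9 CPM in combined tumours (median 15.9), against 2.65 to 11.3 CPM in Snf5-null tumours (median 6.09), with a log2 fold change of 1.38 ± 0.35 (SE, edgeR adjusted p = 0.00347). It was 0.67 (adjusted p = 0.249) within TATCre groups. Of 10 other endothelial genes 2 rose and 3 fell in combined tumours, from Egfl7 at 0.95 to Tek at -1.05 (Egfl7 alone rose without both N49 libraries), beside 29.1% and 20.5% of all genes. The summed level of the 10 was 215 to 350 CPM in combined, against 190 to 472 CPM in Snf5-null libraries. The part of vessel content in the Cldn5 difference was not tested.

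Cldn7, a claudin of simple and basal epithelium, rested on 1 library. It was at 2.63 CPM in combined TATCre library 78777, at 0.0606 to 0.802 CPM in the other 7 combined libraries and at 0 to 0.71 CPM in Snf5-null libraries. Its log2 fold change of 2.49 ± 0.96 (SE, edgeR adjusted p = 0.0381) became 1.04 (adjusted p = 0.333) without 78777, and the call was also lost without N1 or N2 of combined Myf5Cre, N30 or N33 of Snf5-null Myf5Cre, or any 1 of the 6 SS18-SSX libraries (2.04 to 2.33, adjusted p 0.0533 to 0.127).

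Cldn1 and Cldn4 went the other way. Cldn1, a claudin of the epidermal barrier, was at 3.8, 4.45, 5.82 and 3.45 CPM in combined Myf5Cre and at 0.439, 0.987, 0.818 and 0.0751 CPM in combined TATCre libraries. Snf5-null libraries stood at 5.93, 11.7 and 8.75 CPM with Myf5Cre and at 2.62, 4.43, 11, 25.8 and 72.5 CPM with TATCre. The combined TATCre libraries were the low ones, and N51 of the Snf5-null TATCre group was the highest. The log2 fold change was -3.15 ± 0.86 (SE, edgeR adjusted p = 0.00593), being -5.29 within TATCre groups and -1.01 (adjusted p = 0.529) within Myf5Cre groups. Cldn4, the neighbour and frequent partner of Cldn3, was at 0 to 0.909 CPM in combined tumours, against 12.6 CPM in Snf5-null TATCre library N1 and 0 to 1.86 CPM in the other Snf5-null libraries. Its log2 fold change of -3.12 ± 1.25 (SE, edgeR adjusted p = 0.0449) became -0.5 (adjusted p = 0.693) without that library, and the call was lost without 8 other libraries left out singly (N30 or N31 of Snf5-null Myf5Cre, N49, 78774 or 78780 of combined TATCre, and N2, N3 or N4 of combined Myf5Cre). Cldn4 passed the count rule only through Snf5-null tumours, so this difference follows in part from how it was chosen.

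**Figure D2:**
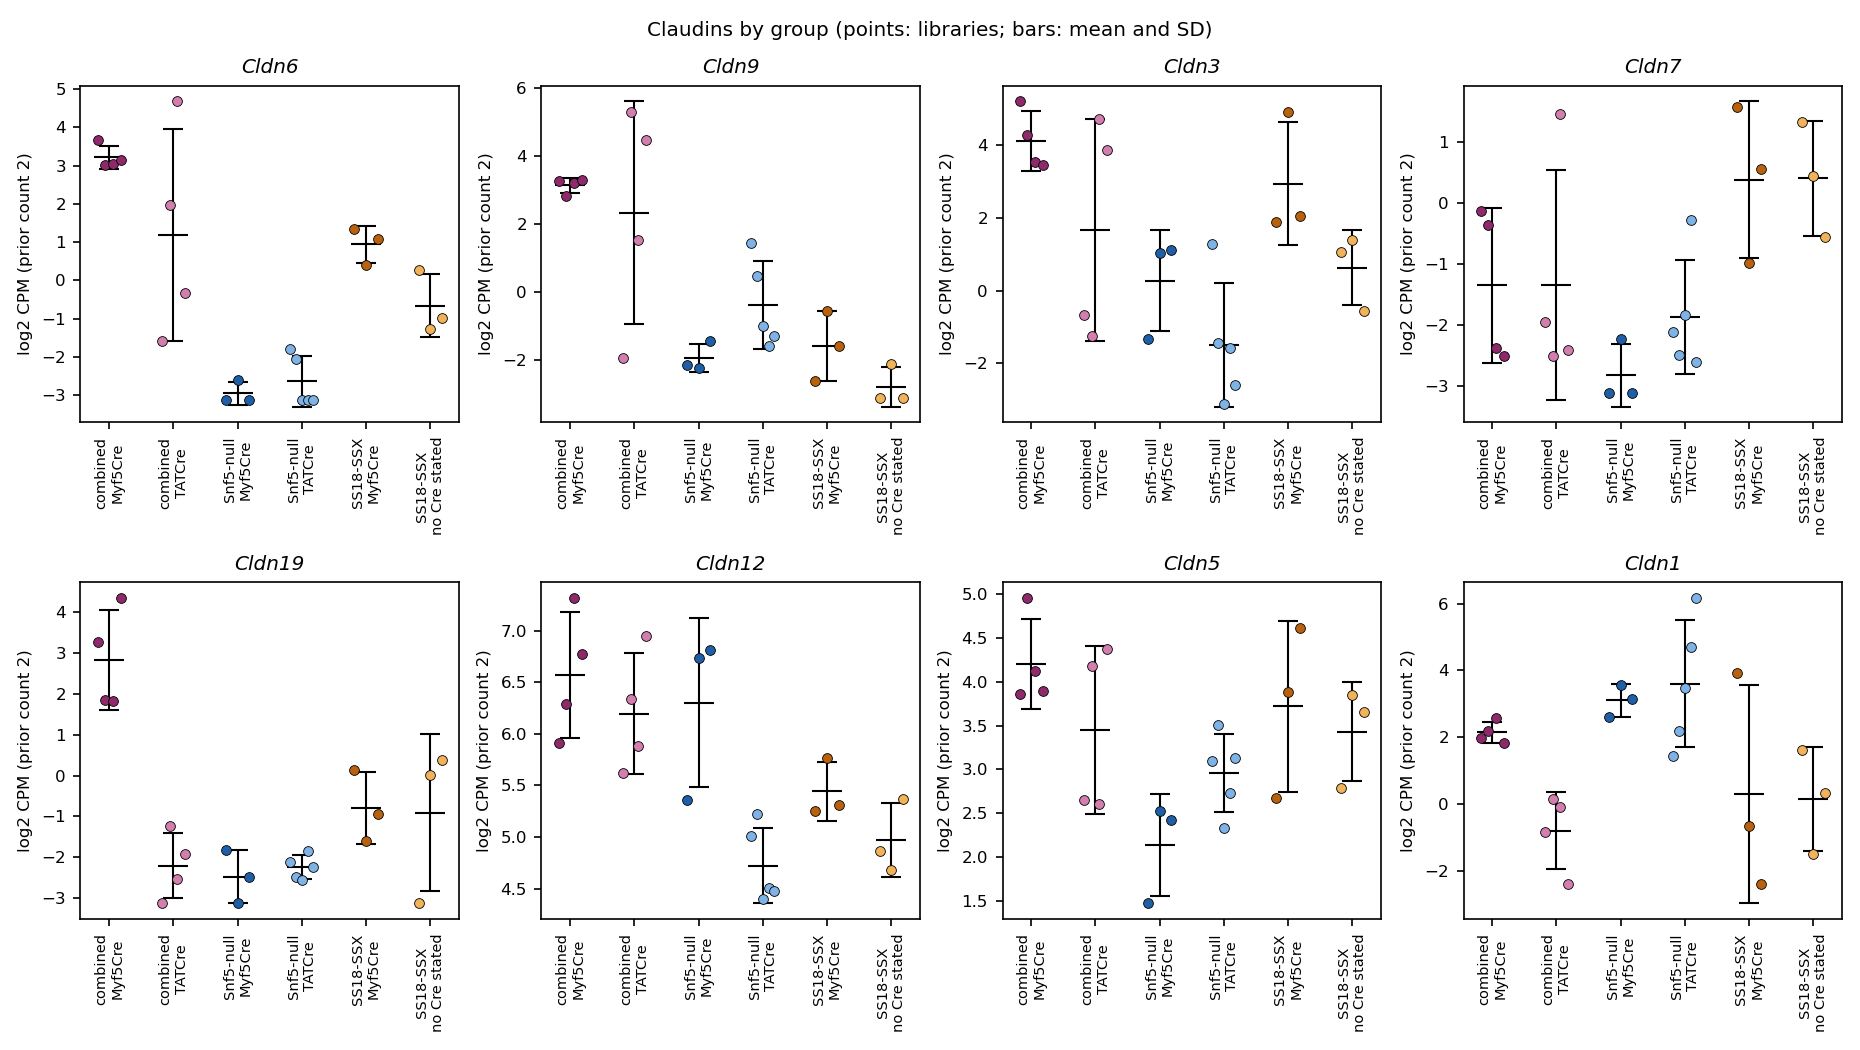
Log2 CPM (prior count 2) of 8 claudins by group; points are libraries, bars are mean and SD. Cldn6 was above every Snf5-null library in all 8 combined libraries, and Cldn19 was high in the 4 combined Myf5Cre libraries alone.

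The simple keratins Krt8 and Krt18 were high in 3 of the 8 combined libraries. Krt18, the type I partner of Krt8, was at 7.81, 4.88, 0.0776 and 0.606 CPM in combined Myf5Cre libraries N1 to N4 and at 0, 0, 1.99 and 0 CPM in combined TATCre libraries N49, 78774, 78777 and 78780. It was at 0.0546 to 0.696 CPM in Snf5-null libraries. Combined libraries N1, N2 and 78777 lay above the Snf5-null range, and TATCre N49, 78774 and 78780 had no count. The log2 fold change was 2.02 ± 0.96 (SE, edgeR adjusted p = 0.0884). It was -1.06 (adjusted p = 0.405) without 78777 and 2.26 (adjusted p = 0.0494) without N49.

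Krt8 was at 1.82, 2.53, 0 and 0.0606 CPM in combined Myf5Cre libraries N1 to N4 and at 0.146, 0.123, 6.54 and 0.376 CPM in combined TATCre libraries N49, 78774, 78777 and 78780. Snf5-null libraries stood at 0 to 1.34 CPM. The same 3 combined libraries, N1, N2 and 78777, were the high ones. The log2 fold change was 1.91 ± 1.04 (SE, edgeR adjusted p = 0.133), or 0.39 without 78777. Sequence windows of 50 bases that occur in another gene made up 26.9% of Krt8, through the pseudogene Krt8-ps.

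Krt19, which lacks the tail of other keratins, stood at 0 to 2.4 CPM in combined and 0 to 0.95 CPM in Snf5-null tumours, with a log2 fold change of 1.91 ± 1.04 (SE, edgeR adjusted p = 0.131). Krt7, a keratin of ducts and bladder, was at 0 to 0.421 CPM in combined tumours (median 0.209), against 0.174 to 1.89 CPM in Snf5-null tumours (median 1.13), a fitted log2 fold change of -2.31 ± 0.64 (SE). It reached 10 counts in 5 Snf5-null libraries and in no other, so this difference follows from how it was chosen.

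Among the other keratins, Krt23 was at 0.0602 to 3.76 CPM in combined tumours (median 0.76), against 10 counts in Snf5-null TATCre library N49 (0.633 CPM), 5 in N1 (0.291 CPM) and none in the other 6 Snf5-null libraries. Krt15, a type I keratin of basal cells and hair follicle stem cells, was at 0 to 1.26 CPM in combined tumours (median 0.491), against 3 counts in each of Snf5-null TATCre libraries N49 and N43R and none in the other 6. The fitted log2 fold changes were 4.58 ± 1.21 for Krt23 and 4.47 ± 1.40 for Krt15 (SE, edgeR adjusted p = 0.00545 and 0.0145). With every Snf5-null Myf5Cre library at 0, these folds depend on the prior count. Without Snf5-null TATCre N49 Krt23 was 5.27. The Krt15 call was lost without combined TATCre library 78777 (3.43, adjusted p = 0.0705).

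Krt80, a type II keratin of many epithelia, was at 0 to 0.976 CPM in combined tumours (median 0.274), against 0.927 to 4.73 CPM in Snf5-null tumours (median 2.03), with a log2 fold change of -2.80 ± 0.68 (SE, edgeR adjusted p = 0.0028). It was -1.44 (adjusted p = 0.207) within TATCre groups. Krt83, a hair keratin, had 1 count in the 8 combined libraries (N49) and 67 counts in the 8 Snf5-null libraries (0.0581 to 0.826 CPM), a ratio of depth-scaled counts of 58.4 in favour of Snf5-null tumours (exact 95% interval 10.1 to 2340, counting error only), in the group that admitted it. Windows of 50 bases shared with another gene made up 22.1% of Krt83, most of them shared with Krt86, so its count is uncertain.

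**Figure D3:**
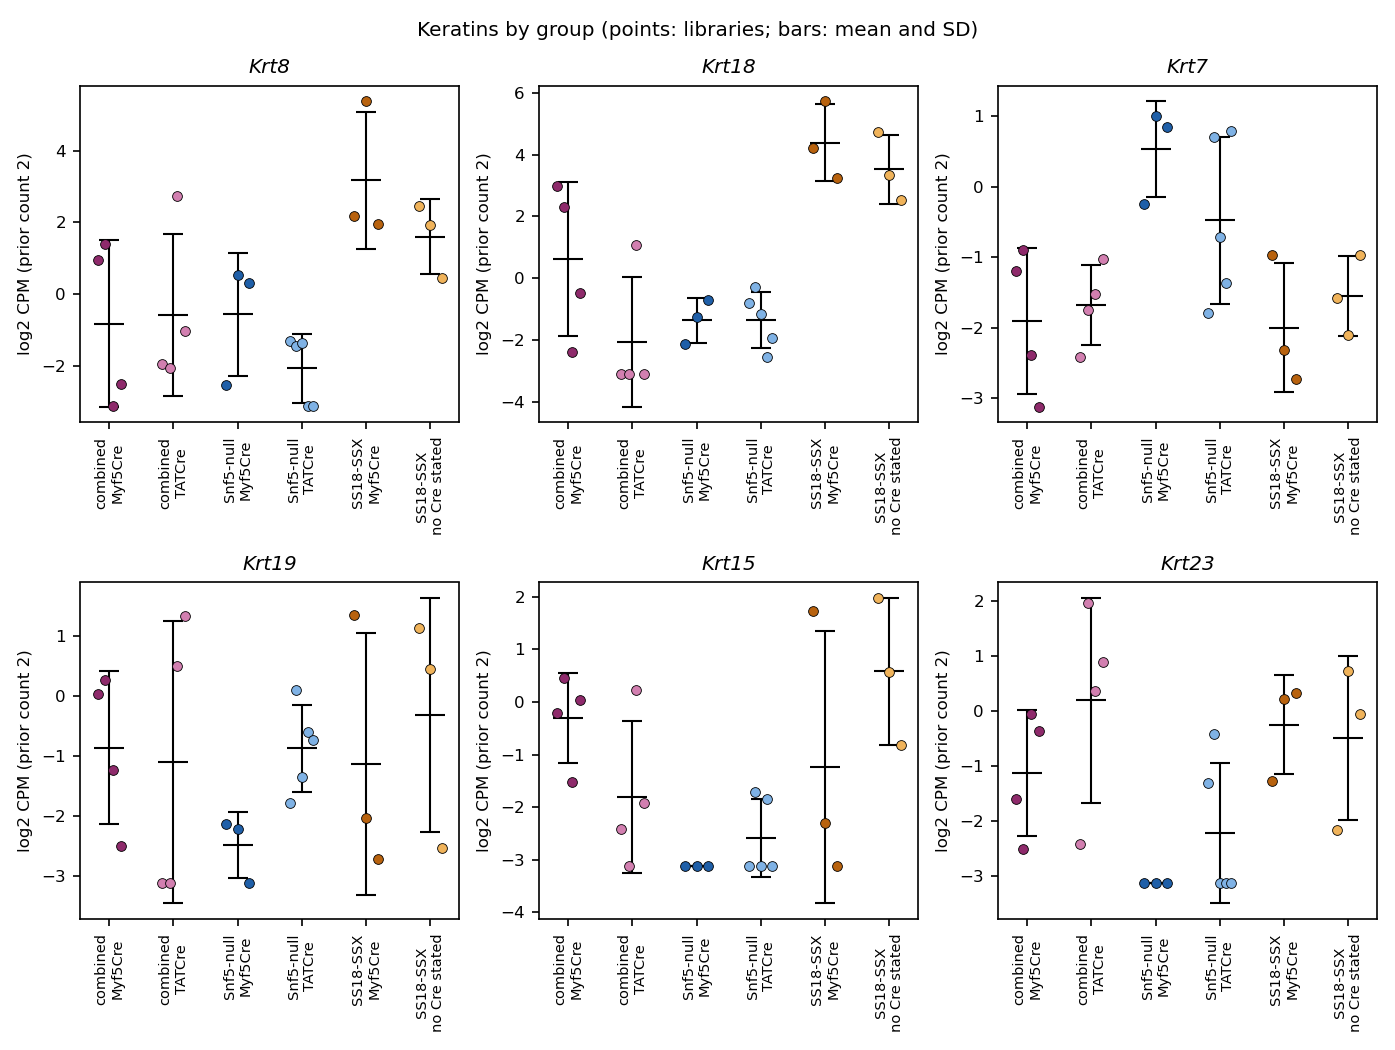
Log2 CPM (prior count 2) of 6 keratins by group; points are libraries, bars are mean and SD. Krt18 was above every Snf5-null library in all 6 SS18-SSX libraries, and combined libraries ran from no count to 7.81 CPM of Krt18.

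The stratified keratins were few in these tumours. Krt5 and Krt14, the basal pair, were not called in any genotype comparison. Sequence windows of 50 bases that occur in another gene made up 8.5% of Krt5, mostly through Krt6a, and 13.9% of Krt14, mostly through Krt16. Krt14 was at 1.87 CPM in combined library 78777, at 16.3, 8.08 and 1.98 CPM in Snf5-null TATCre libraries N49, N43R and N43L, and at 0 to 0.586 CPM in the other 18 libraries. Krt5 was at 5.96 CPM in combined library 78777 and 2.47 CPM in Snf5-null TATCre N49. It was not confined to these, with 10 or more counts in 3 combined, 1 Snf5-null and 2 SS18-SSX libraries. The desmosomal cadherin Dsc3 was at 51.2 CPM in combined 78777 and at 894, 133, 31.5 and 74.1 CPM in Snf5-null TATCre N49, N43R, N43L and N51, and at 0 to 8.55 CPM in the other 17 libraries. Krt10, a keratin of upper layers, was at 1.55 to 7.13 CPM in combined, 0.896 to 3.42 CPM in Snf5-null and 0.34 to 3.06 CPM in SS18-SSX tumours and was not called. The 12 markers of skin keratinocytes summed to 1.54 to 24 CPM in combined, 4.41 to 63.3 CPM in Snf5-null and 3.16 to 16.7 CPM in SS18-SSX libraries. Among them Ivl and Sprr1b had at most 2 and 1 counts in any library and Flg at most 6. The part of overlying skin in the stratified keratins was not tested.

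Epithelial genes outside the 2 families were read from lists chosen for their function, with earlier results of these data known. The lists are therefore no independent support. Of 16 tested genes of epithelial adhesion and identity 11 rose and none fell in combined against Snf5-null tumours, beside 29.1% and 20.5% of all genes. The median log2 fold change of the 16 was 2.76. The largest was the splicing factor Esrp1 (7.21 ± 1.49 SE, edgeR adjusted p = 0.000773) and the smallest the transcription factor Grhl1 (1.44 ± 0.41 SE, edgeR adjusted p = 0.00777). Their summed level was 367 CPM in combined library 78777, 142 and 107 CPM in N1 and N2 and 23 to 61.8 CPM in the other 5 combined libraries, against 22.9 to 77.9 CPM in Snf5-null libraries. The libraries with Krt8 and Krt18 were thus also the highest in this list. Of 18 tight junction and polarity genes other than claudins 6 rose and 2 fell, beside 29.1% and 20.5% of all genes. The apical polarity gene Crb3 was at 6.97 ± 1.41 and the tricellular junction gene Ildr1 at -5.22 ± 0.97 (SE, edgeR adjusted p = 0.000799 and 0.000298).

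Of 11 desmosome genes 3 rose and 1 fell, beside 29.1% and 20.5% of all genes, the shares for each list of this paragraph. The plaque gene Dsp was at 4.73 ± 1.30 and Pkp2 at -2.36 ± 0.60 (SE, edgeR adjusted p = 0.00611 and 0.00368). The counts were the same without Snf5-null TATCre N49, whose desmosome sum of 1690 CPM stood above 34.9 to 325 CPM in the other Snf5-null libraries, and Dsp was then 5.45. Of 8 hemidesmosome and basal layer genes none rose and 6 fell, from Itgb4 at -4.19 ± 0.65 to Lama3 at -1.41 ± 0.40 (SE, edgeR adjusted p = 5.38e-05 and 0.00811). Of 8 mesenchymal regulators 5 fell, from Vim at -2.40 ± 0.55 to Zeb1 at -0.95 ± 0.38 (SE, edgeR adjusted p = 0.00165 and 0.0429). Their sum was 6830 CPM in combined TATCre N49, 426 to 1080 CPM in the other 7 combined libraries and 3970 to 6190 CPM in Snf5-null libraries. Without combined N49 4 fell and 1 rose (Snai2, 1.59), Vim was at -3.51 and Zeb1 was not called (-0.76, adjusted p = 0.0896). Without Snf5-null N49 3 fell and 1 rose, and Zeb1 was at -0.86 (adjusted p = 0.075). Markers of other cells moved with this comparison as well: 8 of 8 leucocyte genes fell, with a summed level of 58.5 to 446 CPM in combined against 1460 to 6180 CPM in Snf5-null libraries, and 4 of 6 mature muscle genes fell, with sums of 70.2 to 1230 CPM in combined against 72.3 to 15100 CPM in Snf5-null libraries. Their part in the members' differences was not tested.

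Combined tumours held more Cldn9, Cldn6 and Cldn12 and less Krt18 than SS18-SSX tumours. Of the 12 claudins 3 rose (Cldn9, Cldn6, Cldn12) and none fell, with a median of 0.48, while over all tested genes 23.1% rose, 21.9% fell and the median was -0.09. Of the 15 keratins none rose and 2 fell (Krt18, and Krt1, which entered through SS18-SSX tumours), and the 4 simple keratins had a median of -1.40. These counts compare genotypes that also differ in number series.

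Krt18 was at 0 to 7.81 CPM in combined libraries, as given above, with N1 highest. In SS18-SSX libraries it stood at 18.5, 53.1 and 9.29 CPM with Myf5Cre (N381, N428, N460) and at 26.3, 9.98 and 5.61 CPM with no Cre stated (A, B, N2). Combined N1 alone overlapped the SS18-SSX range. The log2 fold change was -3.88 ± 0.97 (SE, edgeR adjusted p = 0.00377), and -6.96 without combined TATCre library 78777. Krt8 was at 0 to 6.54 CPM in combined libraries, against 4.42, 41.5 and 3.75 CPM in SS18-SSX Myf5Cre libraries and at 5.36, 3.68 and 1.25 CPM with no Cre stated, so combined libraries 78777, N1 and N2 reached into its range. Its log2 fold change of -2.40 ± 1.03 (SE) missed the threshold (edgeR adjusted p = 0.0644) and passed it without 78777 (-3.92, adjusted p = 0.00558). Krt1 was at 0 to 0.234 CPM in combined, against 0.198 to 0.794 CPM in SS18-SSX tumours, at most 18 counts in a library. Its 3 libraries with 10 counts were all SS18-SSX, so this difference follows from how it was chosen. Krt7 and Krt19 were not called, at 0.06 ± 0.68 and -0.39 ± 0.98, and for Krt7 the sign turned with the scaling.

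Cldn9 was at 0.146 to 38.6 CPM in combined tumours, against 0 to 0.565 CPM in SS18-SSX tumours, with a log2 fold change of 6.60 ± 1.09 (SE, edgeR adjusted p = 0.000171). Cldn6 was at 0.22 to 25.5 CPM in combined tumours, against 0.297 to 2.43 CPM in SS18-SSX tumours, so combined TATCre library 78780 lay within that range and N49 below it. Its log2 fold change was 3.01 ± 0.85 (SE, edgeR adjusted p = 0.00827), 1.88 (adjusted p = 0.0304) without 78777, and 2.16 (adjusted p = 0.122) against the Myf5Cre SS18-SSX group alone. Cldn12 was at 49.1 to 159 CPM in combined and 25.6 to 54.4 CPM in SS18-SSX tumours (1.25 ± 0.28 SE, edgeR adjusted p = 0.00163). Cldn3 was at 0.308 to 36.9 CPM in combined and 0.567 to 29.9 CPM in SS18-SSX tumours, with N428 the highest of these, and was not called (1.64 ± 0.98 SE, edgeR adjusted p = 0.177). Of the 16 genes of epithelial adhesion and identity none rose and 6 fell in combined tumours, from Cdh3 at -3.54 ± 0.76 to Grhl1 at -1.61 ± 0.42 (SE, edgeR adjusted p = 0.00129 and 0.00458), and 4 fell with either N49 library left out. Over all genes 23.1% rose and 21.9% fell in this comparison. Of the 18 other tight junction and polarity genes none rose and 6 fell (median -0.78), Cgnl1 at -2.44 among them, or 4 without combined N49. Of 8 hemidesmosome and basal layer genes 1 rose (Col17a1, 2.55) and 5 fell, Itga6 at -1.30 among them (median -1.38).

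Between Snf5-null and SS18-SSX tumours 14 members were called. Of the 15 keratins 2 rose (Krt83 and Krt7, both admitted through Snf5-null tumours) and 5 fell (Krt15, Krt18, Krt23 and Krt8, and Krt1, admitted through SS18-SSX tumours). Of the 12 claudins 2 rose (Cldn1, and Cldn4, which passed the rule through Snf5-null tumours) and 5 fell (Cldn6, Cldn7, Cldn19, Cldn2, Cldn5), with a median of -0.78. Over all tested genes 22.3% rose, 25.9% fell and the median was -0.06. This comparison shares its libraries with the 2 before it, so its values stand beside theirs and are no separate evidence.

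Krt18 was at 0.0546 to 0.696 CPM in Snf5-null, against 5.61 to 53.1 CPM in SS18-SSX tumours, with no overlap (log2 fold change -5.90 ± 1.15 SE, edgeR adjusted p = 0.000429). Krt8 was at 0 to 1.34 CPM in Snf5-null, against 1.25 to 41.5 CPM in SS18-SSX tumours (-4.32 ± 1.18 SE, edgeR adjusted p = 0.00576), and the ranges met at Snf5-null library N31 and SS18-SSX library N2. Krt15 and Krt23, at 6 and 15 counts over all Snf5-null libraries, gave -5.93 ± 1.42 and -4.54 ± 1.23 (SE, edgeR adjusted p = 0.00271 and 0.00621). Without SS18-SSX library N381 the value for Krt15 was -3.60 (adjusted p = 0.0585). Krt1 was at 0 to 0.317 CPM in Snf5-null, against 0.198 to 0.794 CPM in SS18-SSX tumours, the group that admitted it.

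Krt7 was at 0.174 to 1.89 CPM in Snf5-null, against 0.0367 to 0.397 CPM in SS18-SSX tumours, with Snf5-null the group that admitted it. Krt83 had 67 counts in Snf5-null tumours and none in SS18-SSX tumours, where a count of 0 allows up to 3 counts over the 6 libraries (0.0263 CPM), so it was at least 17.7-fold higher in Snf5-null tumours, the group that admitted it, by depth-scaled counts. Cldn6, at 0 to 0.174 CPM in Snf5-null and 0.297 to 2.43 CPM in SS18-SSX tumours, did not overlap (-4.69 ± 1.03 SE, edgeR adjusted p = 0.00113). Cldn7 was at 0 to 0.71 CPM in Snf5-null, against 0.391 to 2.88 CPM in SS18-SSX tumours (-3.89 ± 1.0 SE, edgeR adjusted p = 0.0039), and the claudins Cldn19 and Cldn5 gave -2.73 ± 0.76 and -1.11 ± 0.37 (SE, edgeR adjusted p = 0.00656 and 0.0173). Cldn5 lost its call without SS18-SSX library N460 (-0.71), B (-0.87) or N2 of the group with no Cre stated (-0.94), or Snf5-null Myf5Cre N30 (-0.84). Over all genes 22.3% rose and 25.9% fell in this comparison. Of the 10 other endothelial genes none rose and 4 fell (median -0.67), from Erg at -1.52 to Esam at -0.72, with sums of 190 to 472 CPM in Snf5-null, against 178 to 626 CPM in SS18-SSX libraries. Their part in the Cldn5 difference was not tested.

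The calls of Cldn1, Cldn4 and Cldn2 in this comparison were the least secure. Cldn1 gave 2.40 ± 0.93 (SE, edgeR adjusted p = 0.0393), between 1.83 without Snf5-null N51 and 4.59 without SS18-SSX N381, and the call was lost without N428, B or N2 of SS18-SSX, or N31, N43R or N51 of Snf5-null tumours. Cldn4 gave 3.82 ± 1.45 (SE, edgeR adjusted p = 0.0361), or 1.22 (adjusted p = 0.353) without Snf5-null TATCre N1, and lost its call also without N30 or SS18-SSX N428, N460, A or N2. Having passed the count rule only through Snf5-null tumours, Cldn4 was higher there in part by how it was chosen. Cldn2, a channel-forming claudin of leaky epithelia, gave -2.42 ± 0.93 (SE, edgeR adjusted p = 0.0385), or -0.4 (adjusted p = 0.742) without SS18-SSX N381 and -1.63 (adjusted p = 0.196) without A. It lost its call also without SS18-SSX N2, Snf5-null N1, N43R, N30, N31 or N33, or combined Myf5Cre N1 or N4. Beside 22.3% of all genes higher and 25.9% lower, of the 16 genes of epithelial adhesion and identity none rose and 14 fell, from Grhl2 at -8.83 ± 1.64 to Ehf at -2.59 ± 0.89 (SE, edgeR adjusted p = 0.000277 and 0.0218). Their summed level was 22.9 to 77.9 CPM in Snf5-null, against 191 to 439 CPM in SS18-SSX libraries. Of 8 leucocyte genes 6 rose, with sums of 1460 to 6180 CPM in Snf5-null, against 60.7 to 464 CPM in SS18-SSX libraries.

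**Figure D4:**
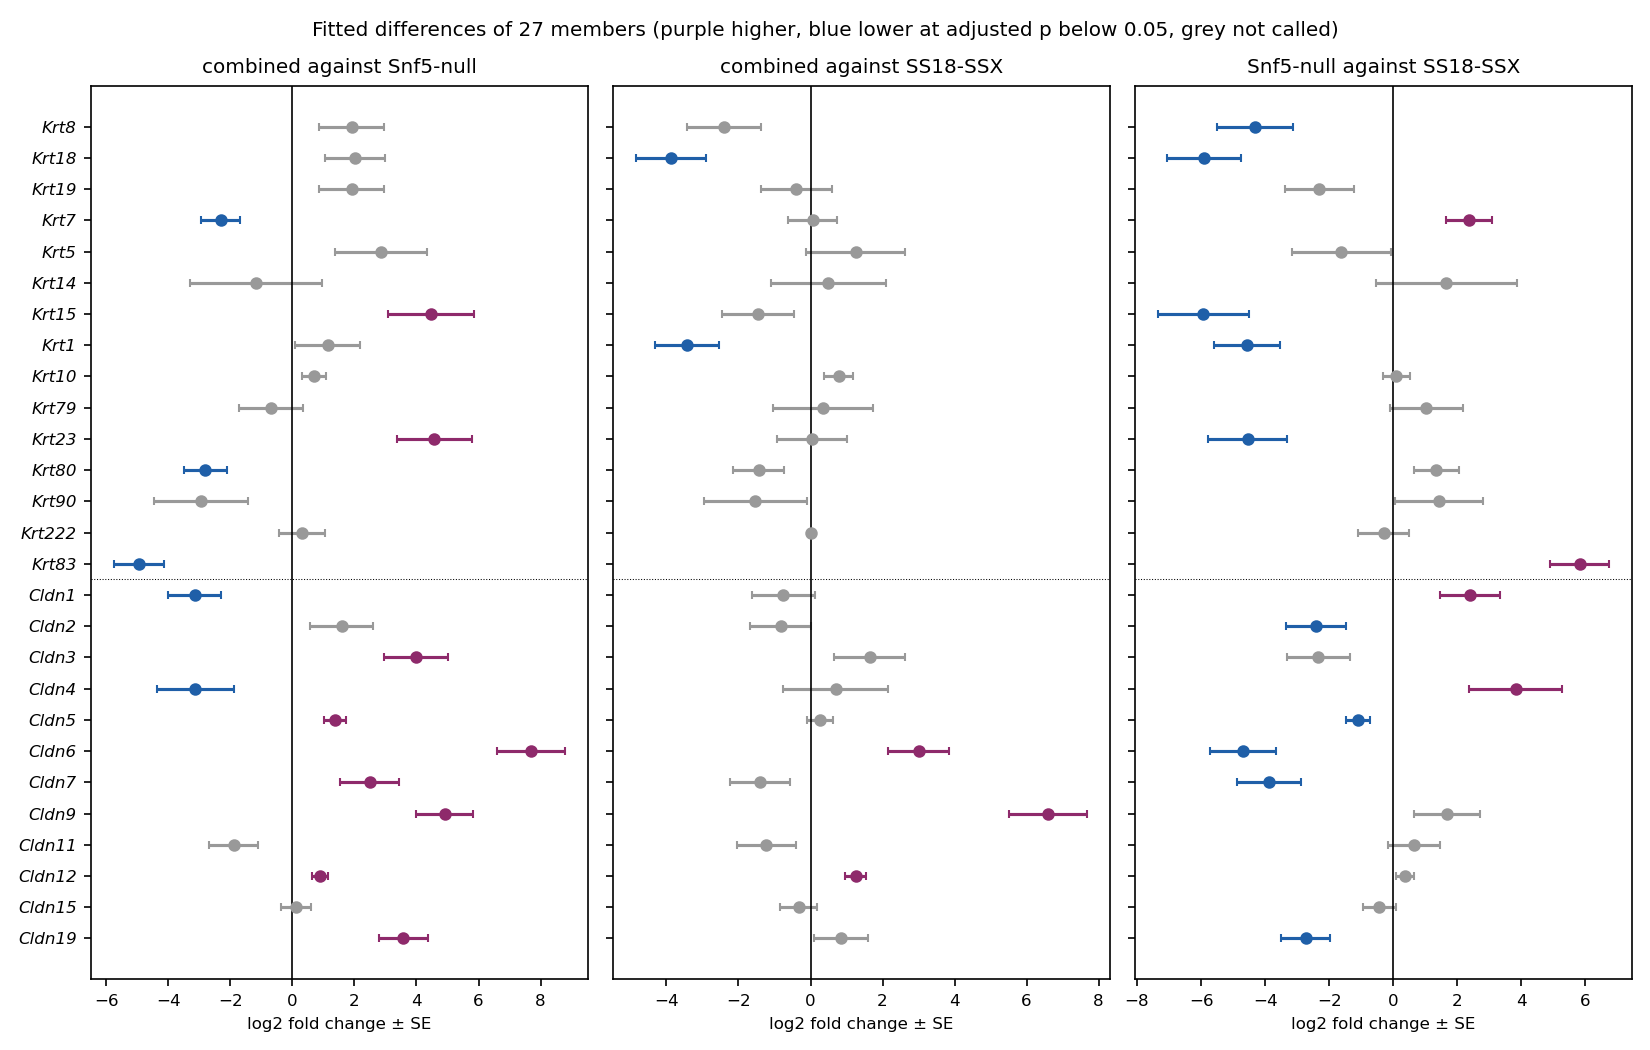
Fitted log2 fold change ± SE (x axis) of the 27 members (rows) in the 3 genotype comparisons; purple members were higher and blue ones lower at an adjusted p below 0.05. Krt1, Krt7, Krt83, Krt90, Cldn4 and Krt14 passed the count rule through the group where they were high. No fold is drawn for Krt83 between combined (1 count) and SS18-SSX tumours (0 counts), and no SE for Krt222 in that comparison, where its fold was 0. Claudins rose in 7 and fell in 2 of 12 cases in the first comparison, and Krt18 lay left of 0 in both comparisons with SS18-SSX tumours.

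Over the 27 members 18 were called in at least 1 genotype comparison and 9 in none, beside 75.5% of all genes called in at least 1. The 18 include Krt1, Krt7 and Krt83, whose calls follow from how they were chosen, and Cldn4, whose calls do so in part. The count and the share are therefore not alike. The 9 were Krt5, Krt10, Krt14, Krt19, Krt79, Krt90 and Krt222 with Cldn11 and Cldn15. Cldn11, the claudin of myelin and Sertoli cells, came nearest, at 0 to 1.05 CPM in combined, against 0.382 to 6.54 CPM in Snf5-null tumours (-1.89 ± 0.78 SE, edgeR adjusted p = 0.0506). Cldn15, a channel-forming claudin of gut, was at 0.117 to 2.05 CPM in combined, 0.448 to 1.17 CPM in Snf5-null and 0.454 to 2.28 CPM in SS18-SSX tumours. Krt222 averaged at most 1.06 CPM in any group.

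Few members were called between tumours with different Cre. Between combined Myf5Cre and combined TATCre tumours Cldn19 alone was called (6.07 ± 1.08 SE, edgeR adjusted p = 0.0101), 1 of 27 members beside 1.82% of all genes. Between Snf5-null Myf5Cre and Snf5-null TATCre tumours Cldn12 rose (1.68 ± 0.36 SE, edgeR adjusted p = 0.0124) and Krt90 passed the threshold as lower, 2 of 27 members beside 4.97% of all genes. Of these, Krt90 was set by how it was chosen, as given below. Cldn12 stood at 41, 107 and 112 CPM in the 3 Snf5-null Myf5Cre libraries, against 21 to 37.2 CPM in the 5 TATCre libraries, and the groups did not overlap. Its call was lost without Myf5Cre library N31 (1.5, adjusted p = 0.0874) or N33 (1.46, adjusted p = 0.0897).

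Krt90 had 1 count in the Snf5-null Myf5Cre libraries, in N30, and 45, 46, 11 and 11 counts in TATCre libraries N43L, N51, N49 and N43R, with none in N1. Those 4 libraries are the ones that admitted it, so the difference follows from how it was chosen. Between SS18-SSX tumours with Myf5Cre and with no Cre stated none of 27 members was called by edgeR or by DESeq2 and 1 had an unadjusted edgeR p below 0.05, beside 2.11% of all genes called, and 3 libraries a group leave wide errors, as for Krt8 (2.28 ± 1.60 SE, edgeR adjusted p = 0.541).

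Partners were compared across libraries within each genotype, in 18 relations, with log2 CPM. Krt8 and Krt18 gave Pearson r = 0.919 and Spearman rho = 0.943 over 6 SS18-SSX libraries (exact permutation p = 0.00556 and 0.0167, adjusted p = 0.05 and 0.166), and r = 0.979 without N428 and N2. Over 8 Snf5-null libraries they gave r = 0.683 and rho = 0.575 (exact permutation p = 0.0632 and 0.143, adjusted p = 0.163 and 0.286), and r = 0.75 without N31 and N43R. Combined libraries fell into 3 high and 5 low in Krt8, so a value pooled over them reflects that split. Krt8 and Krt18 gave r = 0.765 and rho = 0.512 there (exact permutation p = 0.0449 and 0.206, adjusted p = 0.162 and 0.371), and r = 0.698 without 78777 and N2. Krt5 and Krt14 gave r = 0.791 and rho = 0.741 over combined libraries (exact permutation p = 0.0238 and 0.0536, adjusted p = 0.143 and 0.166), and r = 0.149 without 78777 and N1, so the relation rests on those libraries. Cldn3 and Cldn4 gave r = 0.754 and rho = 0.805 over combined libraries (exact permutation p = 0.00417 and 0.025, adjusted p = 0.05 and 0.166), and r = 0.827 without 78774 and N49. Krt5 and Krt14 gave r = 0.705 and rho = 0.741 over Snf5-null libraries (exact permutation p = 0.0417 and 0.0548, adjusted p = 0.162 and 0.166), but 0.0 and -0.03 over SS18-SSX libraries (exact permutation p = 0.947 and 1.0). The other relations went both ways. Among the positive ones, Krt8 and Krt19 gave r = 0.67 and rho = 0.635 over 8 combined libraries (exact permutation p = 0.081 and 0.101, adjusted p = 0.177 and 0.227). Cldn6 and Cldn9 gave r = 0.83 and rho = 0.464 over 8 Snf5-null libraries (exact permutation p = 0.0595 and 0.262, adjusted p = 0.163 and 0.429), but r = -0.623 without N1 and N49. Negative ones were found as well. Cldn3 and Cldn4 gave r = -0.4 and rho = -0.203 over 6 SS18-SSX libraries (exact permutation p = 0.478 and 0.7, adjusted p = 0.615 and 0.84), and r was 0.273 without N428 and N2. Krt8 and Krt19 gave r = -0.625 and rho = -0.707 over 8 Snf5-null libraries (exact permutation p = 0.0991 and 0.0595, adjusted p = 0.178 and 0.166), and -0.524 for r without N31 and N43R. Krt1 and Krt10 gave r = -0.442 and rho = -0.791 over 8 combined libraries (exact permutation p = 0.244 and 0.0357, adjusted p = 0.366 and 0.166), and r = -0.609 without 78777 and N49. Of the 18 relations none had an adjusted p below 0.05.

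**Figure D5:**
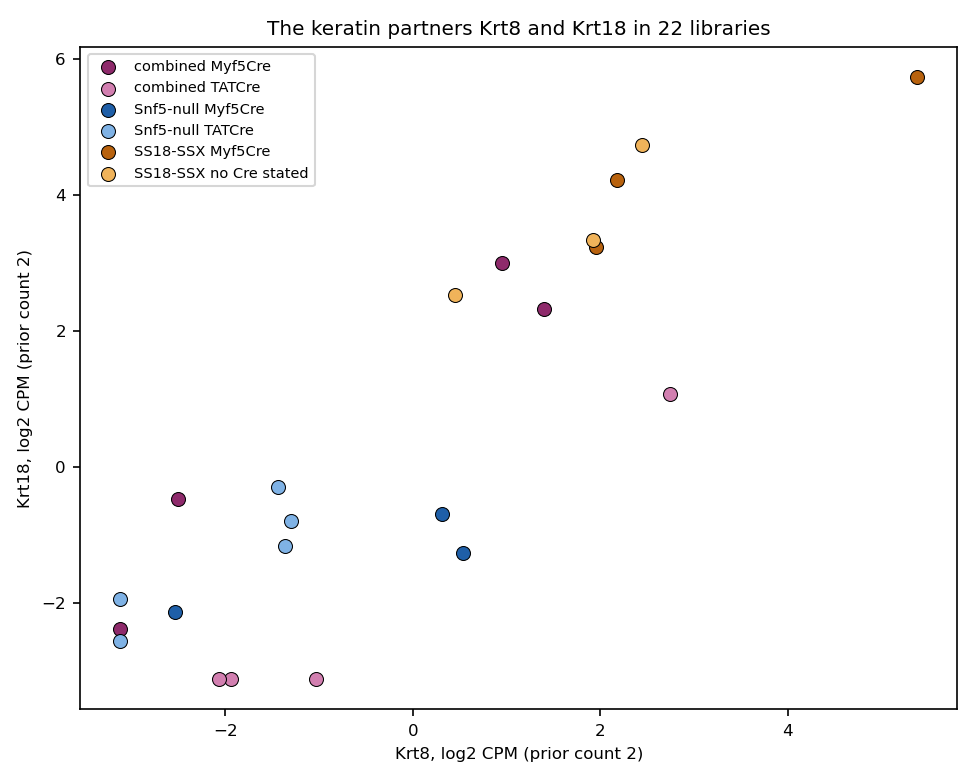
Krt18 against Krt8 (log2 CPM, prior count 2), 1 point per library, coloured by group. SS18-SSX libraries lie from 1.25 CPM of Krt8 and 5.61 CPM of Krt18 upward, combined N1 falls among them, and N2 and 78777 lie below them in Krt18.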

How the data were processed

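RNA-seq gene counts from 22 mouse tumour libraries were analysed as deposited by the authors, raw and not normalized. Per the labels' protocols, RNA came from fresh frozen tumour (RNeasy Mini) and libraries were made with TruSeq Stranded mRNA. Per the submitters' processing notes, the tools were STAR 2.7.5a, RSEM, featureCounts, DESeq2 and cutadapt with the mm10 build, in no stated roles. Whether counting used strand is not stated there, and exons of 8 members overlap a gene on the other strand. Of 48440 gene IDs, 48058 matched GENCODE M21 (GRCm38).

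Groups came from titles and genotype labels. edgeR 4.0.16 (R 4.3.3) was run with TMM scaling and filterByExpr (minimum count 10, minimum total 15), keeping 18929 genes with 99.91% of counts, and a quasi-likelihood fit of all 6 groups. Genotype comparisons averaged the Cre groups equally. p-values were Benjamini-Hochberg adjusted over all tested genes, with a threshold of 0.05. The SE of a log2 fold change is its size divided by the square root of the F statistic, and is undefined at a fold of 0. Log2 CPM used a prior count of 2. Correlations used exact permutations in SciPy 1.17.1. The script was tested on simulated data.

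Alternatives were RLE scaling, DESeq2 1.42.0, no filter, genotype alone, single Cre groups, N43L and N43R summed and each library left out. Leaving out both N49 libraries, the gene lists without either or both of them, and the alternatives of the Cre comparisons, were added after seeing the data. Members and lists were chosen with earlier results of these data known. Named genes were simple keratins, other keratins and claudins averaging at least 1 CPM in a group, and members called in a genotype comparison. Krt5, Krt10, Krt14 and Krt79 fall outside that rule and are given as members of the family. From other lists the called genes with the largest and smallest changes were named, except some not reported here. All 27 members passed the filter. No pair of libraries in a group agreed within sampling noise (chi-square per degree of freedom at least 39.5).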

Additional observations from a re-analysis of the deposited data

Results flagged for a closer look

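Each member was tested in each group of 4 or 5 libraries for a library far from the others. Of these 81 tests 13 flagged one. Chance gives about 1 in 20 for normally distributed values. In 6 of the 13 every other library of the group had no count, so that rate does not apply to them. It may not hold for the rest either, as many members have few counts. In log2 CPM the 13 were, among combined Myf5Cre libraries, N2 for Cldn15 (1.11) and N1 for Krt1 (-2.57), Krt14 (-1.86) and Krt90 (-2.57). Among combined TATCre libraries they were 78777 for Cldn7 (1.46) and Krt18 (1.07), N49 for Krt83 (-2.41) and 78774 for Krt90 (-2.50). Among Snf5-null TATCre libraries they were N1 for Cldn4 (3.67) and Krt83 (-2.53), N51 for Krt222 (-2.23) and N49 for Krt5 (1.37) and Krt79 (0.09).

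The effect of Cre on Cldn19 differed between combined and Snf5-null tumours, with an interaction of 6.43 on the log2 scale (edgeR adjusted p = 0.0385). The call was lost in 12 of 27 settings, among them N43L and N43R summed (adjusted p = 0.0579).

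Family members that did not reach 10 counts in 3 libraries still had counts in single libraries. Cldn13 had 362 counts in Snf5-null TATCre N1 and at most 15 in any other library. Snf5-null TATCre N43R had 23 counts of Cldn10, 16 of Krt16 and 14 of Krt17, and Snf5-null TATCre N49 had 18 of Krt71 and 11 of Krt77. Combined Myf5Cre N2 had 14 counts of Krt20. SS18-SSX A had 14 counts of Krt2, N381 had 10 of Krt4 and N460 had 19 of Krt87.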

How the results depend on the processing

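Of the values of named members under the alternatives, 1170 kept their direction and side of the threshold, 99 lost the call, 5 gained one and 12 changed sign. Krt18 in combined against Snf5-null tumours was -1.06 without combined 78777, and Krt19 in combined against SS18-SSX tumours was 1.22 without N381. Krt7 in combined against SS18-SSX tumours (0.06) was -0.03 with RLE scaling, -0.03 with DESeq2, -0.09 with no filter and -0.21 against the group with no Cre stated, and ran from -0.23 to 0.72 with 1 library left out. It was below 0 without N428 (-0.08), N460 (-0.17) or B (-0.1) of SS18-SSX, or 78780 (-0.09), N1 (-0.08) or N2 (-0.23) of combined tumours.

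Between combined and Snf5-null tumours, TATCre groups alone gave 1 keratin higher, 4 claudins higher and 1 claudin lower, Myf5Cre groups alone 0 claudins lower, and genotype alone 1 keratin lower. Over all genes 18.1% rose and 13.9% fell with TATCre alone, 15.7% and 15.3% with Myf5Cre alone and 21.2% and 22.3% with genotype alone. With 1 library left out, 1 to 3 keratins were higher and 1 to 3 claudins lower, while 15.9% to 34.6% of all genes rose and 18.7% to 23.4% fell. Between combined and SS18-SSX tumours 0 to 1 keratins were higher and 0 to 1 claudins lower. There, 20.2% to 26.2% of all genes rose and 17% to 24.3% fell with 1 library left out.

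Between Snf5-null and SS18-SSX tumours, genotype alone gave 0 keratins higher, 1 claudin higher and 3 lower. The group with no Cre stated gave 1 keratin higher, 0 claudins higher and 3 lower, the SS18-SSX Myf5Cre group 0 claudins higher, and leaving out both N49 libraries 1 keratin higher. Over all genes 25.4% rose and 20% fell with genotype alone, 16.8% and 21.1% with no Cre stated, 16.4% and 24.1% with SS18-SSX Myf5Cre and 26% and 23.7% without both N49 libraries. With 1 library left out, 1 to 3 keratins and 0 to 2 claudins were higher and 3 to 6 claudins lower, while 21% to 27% of all genes rose and 18.9% to 27.5% fell.

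Between Cre labels, DESeq2 called 2 members in combined tumours, and 1 to 2 were called with 1 library left out. In Snf5-null tumours 1 was called with N43L and N43R summed, 1 without both N49 libraries and 0 to 3 with 1 library left out. The interaction gave 0 with N43L and N43R summed, 0 without both N49 libraries and 0 to 2 with 1 library left out. The cause of these changes was not tested.

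RLE scaling brought the share of higher calls among all genes to 51.2%, against 58.7% with TMM, between combined and Snf5-null tumours, and it ran from 44.7% to 63.7% with 1 library left out, and from 44.3% to 55.7% between Snf5-null and SS18-SSX tumours. No paired analysis was possible because the labels do not pair samples across groups. Most members lie near 1 CPM, where a library holds few counts. N43L and N43R share a tag and may be 1 animal.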
